A study of Mus musculus with 21 samples.

Results

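Axon guidance genes are described here through their open chromatin: 40 genes for ligands and receptors (semaphorins, plexins, neuropilins, Slits, Robos, netrins, netrin receptors, Eph receptors and ephrins) out of 21887 protein-coding mouse genes. What was read for each gene is the number of ATAC summits inside its gene body (mm10, RefSeq) or within 20 kb of it, and no value of the files enters that rule; the list of genes was drawn up with earlier results of these data known. A summit is the base at which a called accessibility peak is highest. The files list 159720 to 279584 summits per library, each with a score that is the −log10 of a p or q value, and the 100000 highest-scoring summits of each library were kept so that all libraries contribute the same number.

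The study followed the formation of medulloblastoma, a tumor of the cerebellum, in mice and measured chromatin accessibility with Omni-ATAC in 7 groups of 3 libraries. Granule neuron progenitors (GNP) came from cerebella at postnatal day 7 and hyperplasia from cerebella at postnatal day 28, both of Atoh1-EGFP mice, in which the promoter of a granule lineage gene drives EGFP; tumor cells came from tumor-bearing cerebella of unstated age. The protocol describes sorting of EGFP-positive cells. The GNP titles carry the prefix Ptch1, the gene of the Sonic hedgehog receptor, but genotype and strain are otherwise not given in the labels, and stage and age cannot be told apart. The other 4 groups are VDR cells, a mouse medulloblastoma line: untreated, with control siRNA (siNC), with siRNA against Nfia (siNfia) and with siRNA against Nfib (siNfib), the genes of nuclear factor I transcription factors. No siRNA dose or time is given, the deposited list names of these groups begin with sh rather than si, and a summit count cannot show how far Nfia or Nfib fell. The labels do not tell whether a group's 3 libraries stem from different animals or cultures, so the p-values measure the spread between libraries, which may be technical.

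Growing axons and migrating neurons read guidance cues at the cell surface. Semaphorins signal through plexins, the secreted class 3 semaphorins mostly with a neuropilin as co-receptor; Slits signal through Robo receptors, netrins through Dcc and the Unc5 receptors, and membrane-bound ephrins through Eph receptor tyrosine kinases. In the cerebellum these systems take part in the division of granule neuron progenitors in the external granule layer and in the inward migration of their daughters. Open sites at a gene mark promoters, enhancers and other regulatory elements, not its expression.

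Libraries differed in quality in ways that bear on all values below. The score at rank 100000 ranged from 15.3 to 28.9 in GNP, 9.26 to 12.6 in hyperplasia, up to 21.3 in tumor, 3.76 to 3.97 in untreated VDR, 4.95 to 9.61 in siNC, 5.03 to 7.23 in siNfia and 8.25 to 17.4 in siNfib. Untreated VDR libraries stood apart: they shared an average of 0.253 of their occupied 500 bp sites with each other (Jaccard index), against 0.623 to 0.81 within the other groups. The member windows together cover 13490 kb and held 683 to 769 kept summits in the primary libraries, 562 to 637 in untreated VDR and 660 to 709 with siRNA. Of 8 granule lineage markers, 6 or 7 had an open start in 3 of 3 libraries of every group. Their summed count of kept summits was at least 247 in GNP, 209 to 242 in hyperplasia and 204 to 245 in tumor. VDR-line sums were 123 to 195 untreated, 173 to 198 with siNC, 158 to 173 with siNfia and 183 to 204 with siNfib. Markers of other cells were mixed. Of 5 microglial markers, the starts of Cx3cr1, Csf1r and P2ry12 were open in no library and those of Irf8 and Spi1 in 3 of 3 libraries of every group; of 5 vascular markers, Pecam1, Tie1 and Pdgfrb were open in no library and Kdr in all 9 primary libraries. The summed count was 10 to 34 over the microglial and 7 to 23 over the vascular markers. Over 5 astrocyte markers, of which Slc1a3 had an open start in every library and Aqp4 in none, it was 34 to 37 in GNP, 35 to 39 in hyperplasia and 42 to 50 in tumor. Over the 7 Purkinje cell and interneuron markers the summed count was 37 to 43 in GNP, 51 to 57 in hyperplasia and 44 to 53 in tumor. Among them Foxp2 rose from a mean of 11.3 in GNP to 26.7 in hyperplasia and 28.3 in tumor. Gad1 fell from 7.0 to 5.33 and 3.0, and Gad2 from 3.0 to 1.67 and 2.33. Pax2 went from 1.67 to 3.0 and 0.0, and Pcp2, Calb1 and Pvalb changed little. Over the 5 oligodendrocyte markers the summed count was 30 to 41 in GNP and 41 to 46 in both later stages. The part of these cells in the stage differences was not tested.

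Most guidance genes had an open start in every primary library, and a few of those starts were closed in the whole cell line. A start was counted as open in a library with a kept summit within 1 kb of it. Of the 40 members, 32 (80.0%) had an open start in 9 of 9 primary libraries, and 18 (45.0%) in all 21 libraries, against 53.2% and 36.4% of all 21887 genes; no test was made. Sema6d, Ntng1, Unc5c, Sema3d and Unc5d were open in 9 of 9 primary libraries and in 0 of the 12 VDR-line libraries, that is 5 of 32 members against 389 of 11643 genes, or 3.34%. They encode 2 semaphorins, the membrane-anchored netrin-G1 and 2 netrin receptors. Slit2, a secreted Robo ligand, was open in 3 GNP, 3 hyperplasia and 2 tumor libraries and in none of the VDR line, and Sema3c in 3, 3 and 1 primary libraries and 1 siNfia library. Sema3a and Epha8 had no kept summit at their RefSeq start in any library, and Sema4d and Robo3 had one in 1 untreated VDR library only. The Sema3a start used, chr5:13396784, lies inside a gene body that begins at 13124822. The Sema4d starts used, up to chr13:51756683 on the minus strand, lie inside a body that ends at 51793678. The outer 5′ ends of these genes were not counted as starts. RefSeq starts were given for 32 members; for Sema3f, Ntn1, Sema6a, Slit1, Unc5d, Plxna1, Dcc and Plxna4 either gene end was counted.

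**Figure D1:**
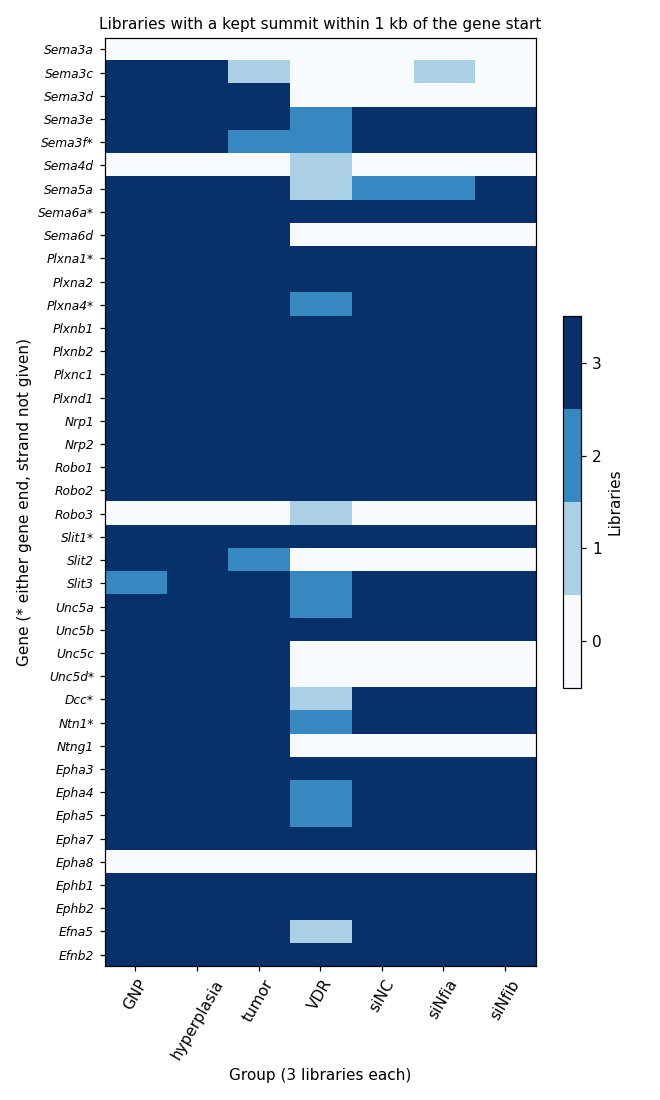
Number of libraries, 0 to 3 of each group (columns), with a kept summit within 1 kb of the start of each of the 40 genes (rows); an asterisk marks the 8 genes for which either end was used. Sema3d, Sema6d, Unc5c, Unc5d and Ntng1 change from 3 libraries in each primary group to 0 in each VDR-line group, and 18 genes have 3 in every group.

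The 250 bases before the start show what these closed starts look like, in mm10 (GRCm38.p6) from RefSeq, written 5′ to 3′ on the gene's strand with each short nuclear factor I motif (TTGGC or its complement GCCAA, either strand) in capitals. Printed are Unc5c (chr3:141465314-141465563, plus strand), Ntng1 (chr3:110143473-110143722, minus strand), Sema3d (chr5:12382916-12383165, plus strand) and the open start of Sema6d (chr2:124089719-124089968, plus strand), which were closed in all VDR-line libraries. Slit2 (chr5:47982905-47983154, plus strand) and, as a contrast, Sema3e (chr5:14025026-14025275, plus strand), open in 9 of 9 siRNA libraries, follow them.
Unc5c: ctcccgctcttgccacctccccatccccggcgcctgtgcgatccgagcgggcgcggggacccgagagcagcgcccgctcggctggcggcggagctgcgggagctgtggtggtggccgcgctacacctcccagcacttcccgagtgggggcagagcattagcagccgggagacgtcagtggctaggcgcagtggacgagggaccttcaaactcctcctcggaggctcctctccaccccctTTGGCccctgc
Ntng1: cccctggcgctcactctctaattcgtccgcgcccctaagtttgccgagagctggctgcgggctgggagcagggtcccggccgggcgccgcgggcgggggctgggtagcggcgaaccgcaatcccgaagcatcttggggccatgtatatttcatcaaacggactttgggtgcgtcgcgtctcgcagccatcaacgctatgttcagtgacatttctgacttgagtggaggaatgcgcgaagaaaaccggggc
Sema3d: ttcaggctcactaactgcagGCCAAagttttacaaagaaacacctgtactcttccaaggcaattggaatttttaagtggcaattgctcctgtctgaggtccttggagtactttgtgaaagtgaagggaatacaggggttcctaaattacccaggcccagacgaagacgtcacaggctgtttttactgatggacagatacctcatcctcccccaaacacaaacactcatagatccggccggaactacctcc
Sema6d: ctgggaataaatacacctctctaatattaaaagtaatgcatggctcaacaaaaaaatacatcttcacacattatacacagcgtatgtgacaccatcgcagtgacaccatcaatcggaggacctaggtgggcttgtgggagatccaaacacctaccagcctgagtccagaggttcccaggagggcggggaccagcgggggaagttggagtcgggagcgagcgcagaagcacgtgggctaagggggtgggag
Slit2: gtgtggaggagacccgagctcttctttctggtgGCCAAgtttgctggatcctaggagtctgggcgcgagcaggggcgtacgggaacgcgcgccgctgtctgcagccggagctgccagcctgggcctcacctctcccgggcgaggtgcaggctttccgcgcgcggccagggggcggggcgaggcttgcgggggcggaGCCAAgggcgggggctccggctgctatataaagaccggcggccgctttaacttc
Sema3e: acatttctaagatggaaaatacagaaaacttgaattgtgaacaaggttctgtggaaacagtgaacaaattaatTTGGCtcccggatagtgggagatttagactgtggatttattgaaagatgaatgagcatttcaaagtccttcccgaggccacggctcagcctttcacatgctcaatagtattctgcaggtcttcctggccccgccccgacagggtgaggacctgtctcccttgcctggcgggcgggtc

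The 6 stretches differ widely in composition. Ntng1 and Slit2 each hold 25 CpG dinucleotides and Unc5c 23, against 9 in Sema6d, 7 in Sema3e and 4 in Sema3d; the median over all 32851 RefSeq starts was 6. Of the closed starts, Unc5c, Ntng1 and Sema6d thus lay above that median and Sema3d below it. The short nuclear factor I motif occurred in 13 of 39 member stretches (33.3%), against 41.5% of all. The full motif, in which TTGGC is followed 5 bases on by GCCAA, and the GLI core GGGTGGTC (or GACCACCC) occurred in 0 of the 39, against 0.0365% and 0.703% of all, and the E-box CATCTG (or CAGATG), which Atoh1 can bind, in 1 (2.56%) against 14.4%. These are letter matches, not binding sites.

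The number of kept summits per library over the gene window is given first, then as a difference on the log2(count + 1) scale with its standard error, which understates changes of low counts. Tests were made with limma across all genes with a mean of at least 3 summits in the fit, with Benjamini-Hochberg adjustment over all genes tested, and a gene was called at an adjusted p below 0.05. Guidance genes are long, with a median body of 183 kb against 17.2 kb for all genes, and in the fit of siNC and tumor the tested members had a median of 16.7 summits against 7.67, so their counts can resolve smaller differences. Per 100 kb of window the GNP level ranged from 1.19 ± 0.295 summits (SD, n = 3) at Sema3c to 35.6 ± 3.47 at Plxnb2, with 1.65 ± 0.13 at Robo2, whose body spans 1555 kb. To separate a gene from its surroundings, the same fit was run on each gene's count relative to the summits of its 10 nearest genes, 5 on each side, whose windows do not overlap it. Some of these neighbours are themselves members (Sema3a, Sema3d and Sema3e of each other, and likewise Robo1 and Robo2, and Epha8 and Ephb2), so the fit was repeated, after the data had been seen, with neighbours whose windows overlap no member; its values are given where they change a call or the reading. A lower count can mean a site open in fewer cells or less open in each, and these cannot be told apart.

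**Figure D2:**
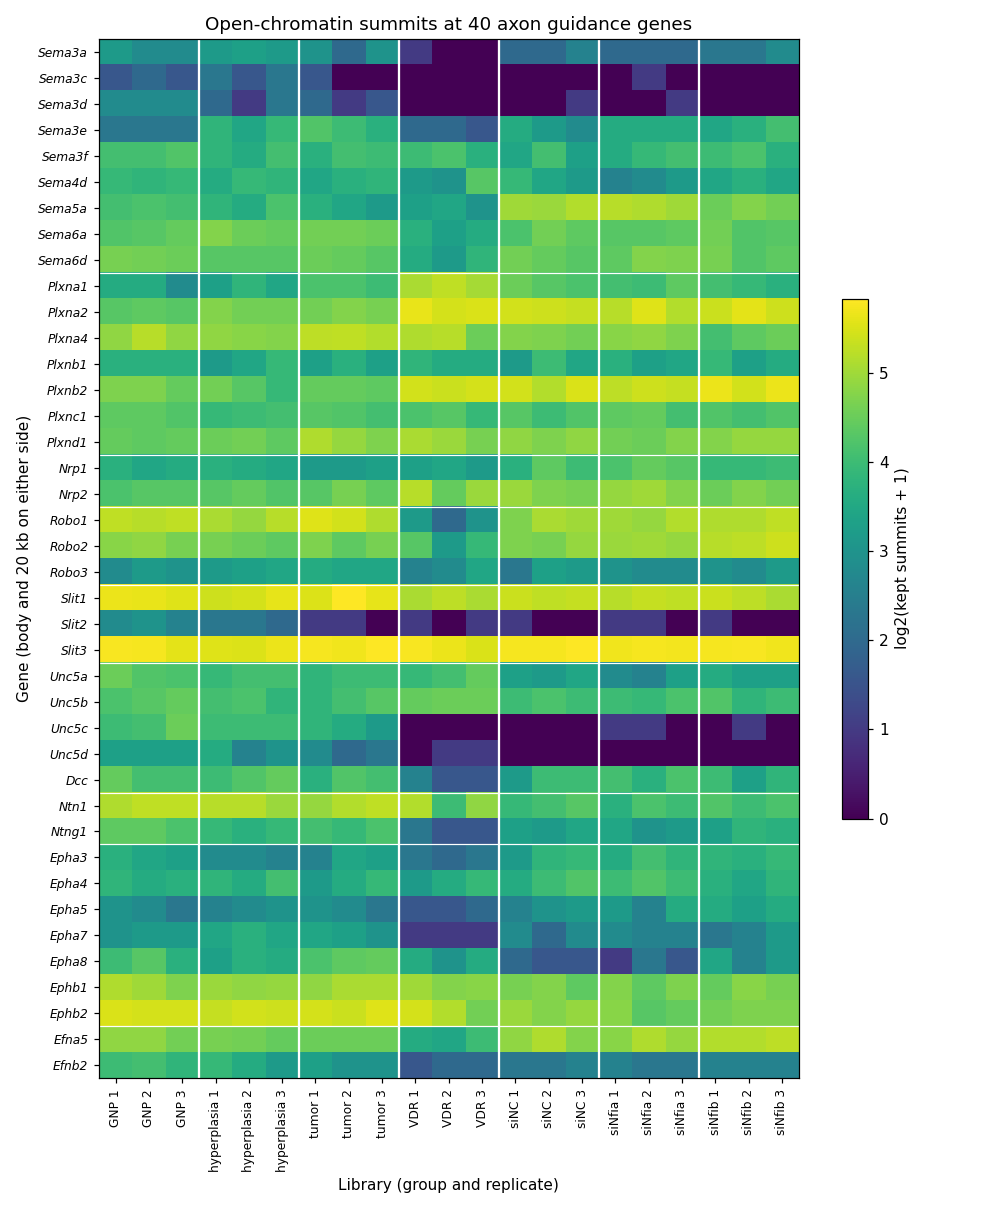
Kept summits of the 40 genes (rows, by family) in the 21 libraries (columns, by group), as log2(count + 1). Slit3 keeps nearly the same shade in every library, Unc5c and Unc5d fall to 0 or 1 in all VDR-line libraries, and Plxna2 and Plxnb2 are brighter in the VDR line than in the primary groups.

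Between GNP and tumor, the semaphorin Sema3e gained open sites and the Robo ligand Slit2 and the ephrin Efnb2 lost them. Of 39 tested members 7 (17.9%) were called between tumor and GNP, against a background of 6.63% of 14112 genes; 4 rose (background 3.08%) and 3 fell (3.55%). Sema3e, Robo3, Plxnd1 and Plxna2 rose, and Slit2, Efnb2 and Sema5a fell. The groups did not overlap for 15 of 39 members (20.7% of all genes), and the median member change was -0.15, against -0.05 over all genes.

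Sema3e encodes a secreted class 3 semaphorin that binds plexin D1 directly. Its window held 4, 4 and 4 summits in GNP, 13, 10 and 14 in hyperplasia and 18, 15 and 12 in tumor. Every hyperplasia and tumor library was at least 10, and no GNP library was above 4. The difference from GNP was 1.40 ± 0.16 in hyperplasia (adjusted p = 0.00462, limma) and 1.66 ± 0.16 in tumor (adjusted p = 0.00172); both use the same GNP libraries. Relative to the neighbouring genes the differences were 1.35 and 1.94 (adjusted p = 0.000826 and 2.00e-05), and with the members Sema3a and Sema3d left out of the neighbours 0.96 and 1.27 (adjusted p = 0.0134 and 0.00235). Both calls held under each of the 13 alternatives and with each of the 9 libraries left out. The receptor gene Plxnd1 had 21, 20 and 21 summits in GNP, 22, 23 and 20 in hyperplasia and 34, 29 and 25 in tumor, a tumor difference of 0.48 ± 0.11 (adjusted p = 0.0352, limma), or 0.17 (adjusted p = 0.477) relative to its neighbours.

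Part of the Sema3e increase lay far inside the gene. The best-ranked gained site among all member windows was at chr5:14195087-14195586, in the gene body 170061 bp from the start. It was occupied in 0 of 3 GNP, 3 of 3 hyperplasia and 3 of 3 tumor libraries, at a mean rank of 6785 in hyperplasia and 7306 in tumor. In the VDR line it was occupied in 1 siNC library and no other. In all, 4 sites of Sema3e were gained in hyperplasia and 2 in tumor against GNP, where gained means 3 of 3 libraries of one group and 0 of 3 of the other.

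**Figure D3:**
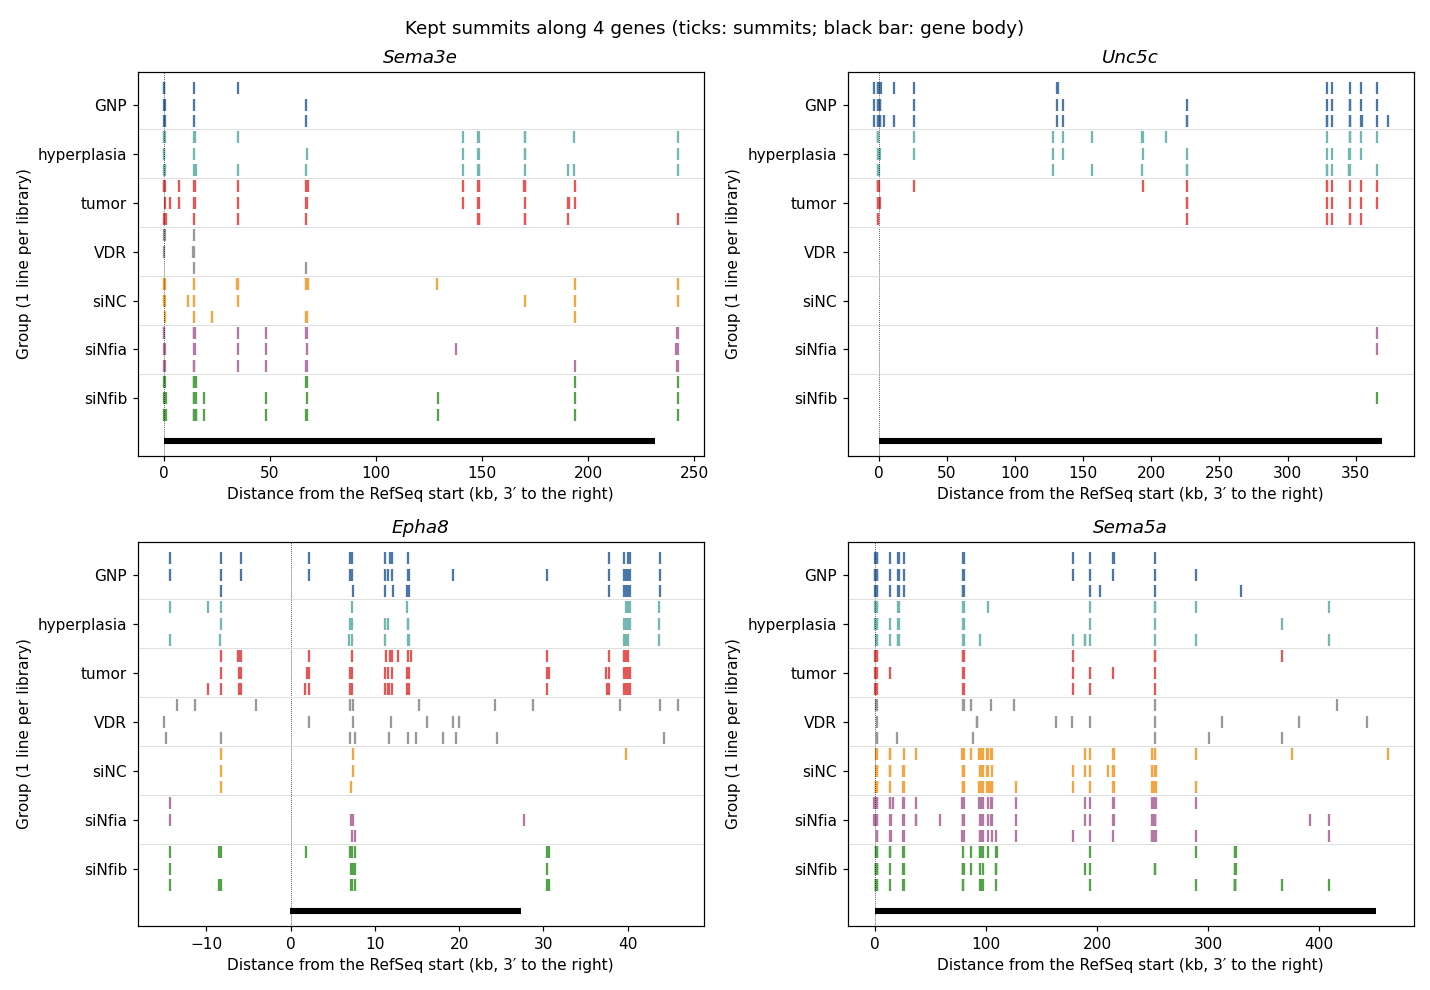
Kept summits (ticks) along Sema3e, Unc5c, Epha8 and Sema5a by distance from the RefSeq start in kb, 1 line per library, coloured by group; the black bar is the gene body. Sema3e has a tick near 170 kb in each hyperplasia and tumor library and in 1 siNC library, and Unc5c has no tick in the untreated VDR and siNC libraries.

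Slit2 went the other way. Its counts were 6, 7 and 5 in GNP, 4, 4 and 3 in hyperplasia and 1, 1 and 0 in tumor, so that the 3 groups did not overlap. The tumor difference was -2.13 ± 0.26 (adjusted p = 0.00441, limma) and -2.29 relative to neighbours (adjusted p = 0.000111), and it held under the 10 alternatives that could test the gene and with each library left out. Slit2 passed the filter on low counts only through its GNP and hyperplasia counts, so that a tested Slit2 with this tumor level had to differ; with no filter the adjusted p was 0.00655. In the whole lists it had 15 to 21 summits in GNP, 12 to 14 in hyperplasia and 2 to 9 in tumor. The other Slits kept high counts: Slit1 had 46 to 50 in GNP and 45 to 56 in tumor, and Slit3 47 to 54 and 51 to 56.

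Efnb2, the transmembrane ephrin-B2, had 15, 16 and 13 summits in GNP, 14, 11 and 8 in hyperplasia and 9, 7 and 7 in tumor. The tumor libraries lay below all GNP libraries, and the difference was -0.86 ± 0.18 (adjusted p = 0.0278, limma) or -0.82 relative to neighbours (adjusted p = 0.0232). Of its lost sites the best ranked was at chr8:8621932-8622431, in the gene body 39060 bp from the start, occupied in 3 of 3 GNP and in no other library of the 21. Sema5a, a transmembrane semaphorin, had 16, 17 and 16 in GNP, 13, 11 and 17 in hyperplasia and 12, 10 and 8 in tumor (-0.67 ± 0.17, adjusted p = 0.0463). Robo3, a Robo receptor of commissural axons, had 6, 8 and 7 in GNP, 8, 9 and 10 in hyperplasia and 11, 10 and 10 in tumor (0.51 ± 0.12, adjusted p = 0.0408); its window also covers Robo4. Plxna2, a plexin that receives transmembrane semaphorins in migrating granule cells, had 19, 20 and 19, then 26, 23 and 23, then 23, 26 and 24 (tumor against GNP 0.32 ± 0.08, adjusted p = 0.0459).

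These smaller calls were fragile. Leaving out any 1 GNP or tumor library, or hyperplasia replicate 2, lowered the member count from 7 to 2 or 3. Efnb2, Sema5a, Robo3, Plxna2 and Plxnd1 each kept the call with at most 2 of the 9 libraries left out in turn, with adjusted p of up to 0.141. Relative to neighbours 9 members were called, 2 up and 7 down (background 7.16%), Sema3e and Plxna2 were up and Slit2, Efnb2, Sema5a, Sema3a, Sema3d, Unc5c and Unc5d down. Of these, Sema3a, Sema3d, Unc5c and Unc5d had not passed on their own counts (-0.26, -1.28, -0.68 and -0.95). The neighbours of Sema3a and Sema3d include Sema3e, whose own rise, given above, is in their baseline: with members left out Sema3a gave -0.40 (adjusted p = 0.201), no longer called, and Sema3d -1.41 (adjusted p = 0.0113). Sema3d passed the filter on low counts only through GNP, as its hyperplasia and tumor means were under 3. Its call relative to neighbours was thus favoured in advance. With no filter its own count gave an adjusted p of 0.0825 (limma).

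**Figure D4:**
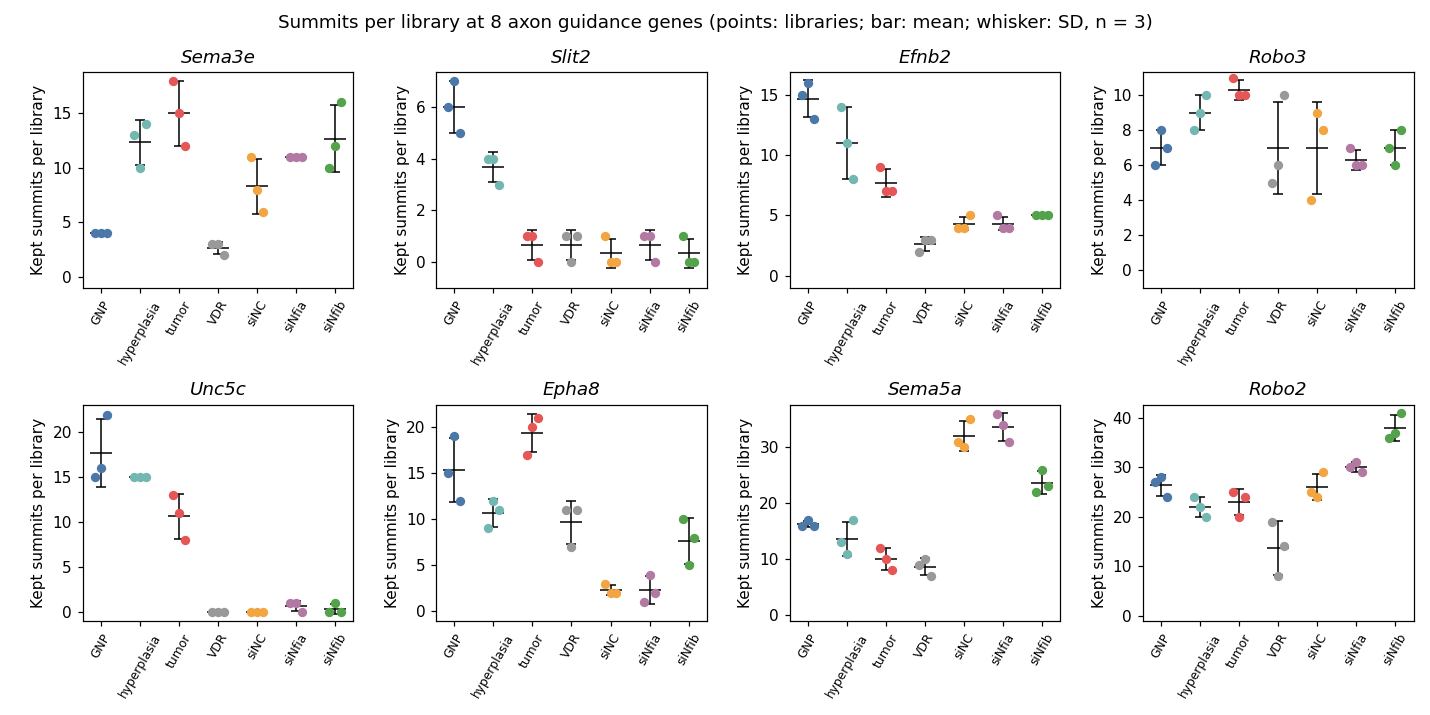
Kept summits per library (points, coloured by group) with mean and SD (n = 3) for Sema3e, Slit2, Efnb2, Robo3, Unc5c, Epha8, Sema5a and Robo2. Sema3e lies at 4 in each GNP library and at 10 to 18 in hyperplasia and tumor, Unc5c at 0 or 1 in all VDR-line libraries, and Epha8 at 5 to 10 with siNfib against 1 to 4 with siNC or siNfia.

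Between GNP and hyperplasia 2 of 39 members were called (background 4.51%): Sema3e, above, and Ntng1. Ntng1 fell from 20, 20 and 17 to 14, 12 and 14 summits, without overlap (-0.48 ± 0.11, adjusted p = 0.0388, limma). That call was lost when any GNP or hyperplasia library, or tumor replicate 1 or 3, was left out (adjusted p of up to 0.139), and relative to neighbours it was -0.50 (adjusted p = 0.0914). Plxnc1, a plexin for semaphorin 7A, had 20, 20 and 18 against 14, 15 and 16 (-0.35 ± 0.09, adjusted p = 0.0652), and Plxna2 missed the threshold at 0.30 ± 0.08 (adjusted p = 0.0667). Groups did not overlap for 11 of 39 members (17.3% of all genes). Relative to neighbours 5 members were called, 2 up and 3 down (background 5.96%): Plxna2 and Sema3e up, Sema3d, Plxnc1 and Slit2 down. Sema3d had 6, 6 and 6 summits in GNP and 3, 1 and 4 in hyperplasia, and its own count gave -1.03 ± 0.34 (adjusted p = 0.119). Its baseline again holds Sema3e, and with members left out the value was -1.0 (adjusted p = 0.0597), short of the threshold. Sema3d passed the filter only through GNP, and with no filter its own count gave an adjusted p of 0.167 (limma).

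From hyperplasia to tumor no member was called of 39 (background 0.198%); 13 had an unadjusted p under 0.05, as did 2366 of the 14112 genes. The 4 members with the lowest p were Slit2 (-1.55 ± 0.26, adjusted p = 0.0575, limma), Epha8 (0.80 ± 0.16, adjusted p = 0.0664), Plxna4 (0.43 ± 0.10, adjusted p = 0.0843) and Plxnd1 (0.41 ± 0.11, adjusted p = 0.106). Epha8, an Eph receptor of the A class, had 9, 12 and 11 summits in hyperplasia and 17, 20 and 21 in tumor, after 15, 19 and 12 in GNP. Plxna4, a plexin used with neuropilins, had 28, 27 and 26 in hyperplasia and 37, 38 and 35 in tumor. Relative to neighbours Plxna4 and Plxnd1 gave 0.10 and 0.15 (adjusted p = 0.772 and 0.631), and chromosome 6, which holds both, carried 4.94% to 5.24% of kept summits in hyperplasia and 6.02% to 7.17% in tumor. Groups did not overlap for 9 of 39 members (11.6% of all genes), and relative to neighbours 1 member was called, Slit2 (background 0.992%).

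Single sites were also gained and lost between the stages. Of 787 sites occupied in member windows in GNP or hyperplasia, 27 were gained (background 4.69%) and 51 lost (4.36%) in hyperplasia. From hyperplasia to tumor 19 of 749 were gained (1.84%) and 15 lost (2.03%), and between GNP and tumor 23 of 770 were gained (4.74%) and 44 lost (4.32%). Member sites were thus lost in 6.48% and gained in 3.43% of cases in hyperplasia, where all sites were lost and gained nearly equally often; no test was made. In hyperplasia 43 of the 51 lost and 26 of the 27 gained sites lay in gene bodies. Only 3 of the 27 gained sites had no summit less than 500 bp away in any of the 3 complete GNP lists. Most thus had a summit there, below rank 100000 or counted to a neighbouring site.

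By kept summits, some sites were occupied in GNP, not in hyperplasia, and again in tumor. A site in Robo1 at chr16:72747676-72748175, in the gene body 84777 bp from its RefSeq start, was occupied in 3 GNP, 0 hyperplasia and 3 tumor libraries, and one in Epha8 at chr4:136944491-136944990, 12075 bp from the start, in 3, 0 and 3. A site in Ephb1 at chr9:101938110-101938609 followed the same course. Every whole hyperplasia list still held a summit less than 500 bp from each of these sites. The ranks were 103631 to 218730 at Robo1, 93117 to 180412 at Epha8 and 108411 to 132393 at Ephb1. The summit at rank 93117 was kept, but was counted to a neighbouring site. Another Ephb1 site, at chr9:101956146-101956645, was occupied in 3 GNP libraries and in none of the other 18. A site of Slit3 at chr11:35416628-35417127 was occupied in 0 GNP, 3 hyperplasia, 3 tumor and no VDR-line library. Neither Ephb1 nor Slit3 was called by count between any stages.

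Against tumor, the VDR line had almost no kept summits at the repulsive netrin receptor genes Unc5c and Unc5d. Unc5c had 15, 16 and 22 summits in GNP, 15, 15 and 15 in hyperplasia and 13, 11 and 8 in tumor, then 0, 0 and 0 in untreated VDR, 0, 0 and 0 in siNC, 1, 1 and 0 in siNfia and 0, 1 and 0 in siNfib. The tumor level was thus at least 3.56-fold higher than in untreated VDR or siNC, taking 3 summits per library as the floor for a count of 0. On the fitted scale, where the size depends on the added 1, the siNC difference was -3.52 ± 0.20 (adjusted p = 0.000245, limma) and -3.39 relative to neighbours (adjusted p = 5.88e-07); the neighbours held a mean of 57.3 summits in siNC and 62.7 in tumor. Unc5c passed the filter only through tumor and, if tested, had to differ; with no filter the adjusted p was 0.000392. Even in the whole lists Unc5c had 20 to 28 summits in tumor and at most 1 in any untreated VDR or siNC library. Its start site at chr3:141465260-141465759, centred in the printed stretch, was at ranks 12347 to 16945 in tumor and in no list of siNC.

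Unc5d had 9, 9 and 9 summits in GNP, 11, 5 and 7 in hyperplasia, 6, 3 and 4 in tumor, 0, 1 and 1 in untreated VDR and 0 in each of the 9 siRNA libraries. It was under the filter in the line comparisons and was not tested there. The remaining netrin receptor genes kept summits: siNC libraries held 9, 8 and 10 summits at Unc5a, 15, 17 and 15 at Unc5b and 8, 15 and 15 at Dcc, the attractive netrin receptor. Of these, Unc5a passed the test, with 13, 15 and 15 in tumor (-0.62 ± 0.12, adjusted p = 0.0088, limma; -0.59 relative to neighbours, adjusted p = 0.0205). Ntn1, the gene of the netrin-1 ligand, had 29, 35 and 38 in tumor and 14, 16 and 19 in siNC (-1.02 ± 0.14, adjusted p = 0.00344), or -0.41 relative to neighbours (adjusted p = 0.0722). Summed over the 5 netrin receptor genes, counts were 78 to 85 in GNP, 71 to 72 in hyperplasia, 57 to 63 in tumor and 32 to 44 in the siRNA libraries.

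In siNC against tumor 16 of 36 tested members (44.4%) were called (background 34.4% of 13923 genes), 5 up (21.1%) and 11 down (13.3%). Relative to neighbours 9 were called, 2 up and 7 down (29.6%); Plxnb1, Robo1 and Nrp2 were among them, with 0.70, -0.50 and -0.48, but had not passed on their own counts. With members left out of the neighbours Robo1 was no longer called (-0.36, adjusted p = 0.116) and Sema3a was (-0.83, adjusted p = 0.0159). The median over members was -0.16, unchanged with Unc5c at its floor, and 0.11 over all genes. With 1 library left out the member count was 11 to 13. Sema3e, Nrp1, Efna5 and Ephb1 were the named members that lost the call in most such fits, with adjusted p of up to 0.13, 0.071, 0.102 and 0.131.

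Epha8 showed the second largest fall, from 17, 20 and 21 summits in tumor to 3, 2 and 2 in siNC. Untreated VDR had 11, 7 and 11, a difference of -0.95 that was called on its own count, but -0.67 relative to neighbours, which was not called. The siNC difference was -2.62 ± 0.16 (adjusted p = 0.000326, limma) and -2.18 relative to neighbours (adjusted p = 6.59e-06), and it held under all 13 alternatives, among them no filter on low counts, which the gene passed through tumor alone, and with each library left out. Its 7 lost sites lay in the gene body and both flanks, and for 4 of them none of the whole siNC lists held a summit. The receptor gene Ephb2, on the same chromosome, had 43, 40 and 46 in tumor and 30, 26 and 29 in siNC (-0.59 ± 0.09, adjusted p = 0.00457), or -0.07 relative to neighbours (adjusted p = 0.76). Those neighbours held a mean of 55.7 summits in tumor and 38.7 in siNC and include Epha8, which went from 19.3 to 2.33; with members left out Ephb2 gave -0.36 (adjusted p = 0.121). Ephb1 had 28, 33 and 33 against 24, 26 and 20 (-0.41 ± 0.12, adjusted p = 0.039), or -0.19 relative to neighbours (adjusted p = 0.518).

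Sema5a held more summits in siNC than in tumor. It had 12, 10 and 8 summits in tumor, 9, 10 and 7 in untreated VDR and 31, 30 and 35 in siNC, so that siNC lay above both. The difference from tumor was 1.60 ± 0.15 (adjusted p = 0.00115, limma) and 1.00 relative to neighbours (adjusted p = 0.00113). In siNC 9 sites of Sema5a were gained against tumor, all in the gene body, the best ranked at chr15:32345914-32346413, 101351 bp from the start. Chromosome 15 as a whole carried 6.16% to 6.99% of kept summits in siNC and 4.14% to 4.30% in tumor.

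The plexins that rose did so with their surroundings. Plxnb2, a plexin of granule neuron progenitors, had 21, 21 and 20 summits in tumor and 42, 35 and 44 in siNC (0.93 ± 0.10, adjusted p = 0.00179, limma), but 0.18 relative to neighbours (adjusted p = 0.455). Plxna2 had 23, 26 and 24 against 42, 41 and 39 (0.72 ± 0.08, adjusted p = 0.00182), but -0.05 relative to neighbours (adjusted p = 0.849). Chromosome 1, which holds Plxna2, carried 8.01% to 8.85% of summits in siNC and 6.24% to 6.64% in tumor. Nrp1, the co-receptor of class 3 semaphorins, had 8, 8 and 9 against 12, 20 and 15 (0.81 ± 0.18, adjusted p = 0.0149) and 0.22 relative to neighbours (adjusted p = 0.436). Efna5, the ligand ephrin-A5, had 22, 22 and 22 against 28, 34 and 26 (0.39 ± 0.11, adjusted p = 0.0338) and 0.07 relative to neighbours (adjusted p = 0.795). Of the genes that rose, Sema5a was the only one of the 5 still called.

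Among the other members that fell in siNC, Sema3e went from 18, 15 and 12 to 11, 8 and 6 (-0.80 ± 0.23, adjusted p = 0.0353, limma; -0.74 relative to neighbours, adjusted p = 0.0207). Plxna4 went from 37, 38 and 35 to 26, 25 and 23 (-0.55 ± 0.08, adjusted p = 0.00385; -0.73, adjusted p = 0.00477). Both kept their direction against their surroundings. Ntng1 went from 16, 14 and 17 to 9, 8 and 10 (-0.74 ± 0.12, adjusted p = 0.00549) and Efnb2 from 9, 7 and 7 to 4, 4 and 5 (-0.70 ± 0.15, adjusted p = 0.0138). Relative to neighbours these 2 gave -0.24 (adjusted p = 0.309) and -0.43 (adjusted p = 0.116).

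Single sites were lost more often than gained. Of 837 sites in member windows 33 (3.94%) were gained (background 4.65%) and 93 (11.1%) lost (10.1%) in siNC against tumor, shares near the background. A summit was counted to its nearest site only, so a gained site can lie beside one that was open in tumor. The best-ranked gained sites were at Plxna2 (chr1:194658169-194658668) and Plxnb2 (chr15:89183661-89184160). Tumor summits lay less than 500 bp from them, at ranks 8826 to 16839 and 5788 to 11085. Of the lost sites 53 were missing from the whole lists of all 3 siNC libraries. A Robo1 site at chr16:73027633-73028132, in the gene body 364734 bp from its RefSeq start, was occupied in all 9 primary libraries and in none of the VDR line. A Slit3 site at chr11:35151617-35152116 was occupied in 3 of 3 libraries of each primary group, 0 of siNC and siNfia, 2 of untreated VDR and 3 of siNfib. Over all member windows 32 sites were open in 9 primary libraries and in none of the 12 of the VDR line, and 9 in all 9 siRNA libraries and no primary one.

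Untreated VDR gave more calls against tumor, and most of them were not called relative to neighbours. A value short of that threshold does not show that a gene followed its surroundings. Of 36 tested members 19 (52.8%) were called (background 44.1% of 13489 genes), 3 up (19.4%) and 16 down (24.7%); relative to neighbours 7 were called, 2 up and 5 down (18.2%). For 7 of the 19 (Unc5c, Sema3a, Epha7, Ntng1, Sema3e, Efnb2 and Epha5) the untreated VDR mean was under 3, so that they passed the filter through tumor alone; all 7 were also called with no filter. These libraries stand apart, as given above, and siNC against tumor gives the line without them. The member median was -0.42, against -0.19 over all genes, and with 1 library left out the member count was 15 to 19.

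Of the 7 called relative to neighbours, Unc5c, Robo1, Sema3e, Dcc, Plxna1 and Robo2 were also called on their own counts; Epha4 was not (0.00 on its own, -1.36 relative to neighbours). With members left out of the neighbours these 7 and Sema3a were called. Unc5c, at 0 in all 3 libraries, gave -3.52 ± 0.28 (adjusted p = 8.6e-05, limma; 0.000637 with no filter) and -2.38 relative to neighbours (adjusted p = 0.0013). Robo1 went from 46, 42 and 34 summits in tumor to 8, 3 and 7 (-2.65 ± 0.29, adjusted p = 0.000308; -1.42 relative to neighbours, adjusted p = 0.00222), but siNC had 25, 33 and 31. Sema3e went to 3, 3 and 2 (-2.12 ± 0.22, adjusted p = 0.000233; -1.38, adjusted p = 0.0053). Dcc went from 12, 18 and 16 to 5, 2 and 2 (-2.09 ± 0.30, adjusted p = 0.00104; -1.18, adjusted p = 0.0311), but siNC again lay higher, at 8, 15 and 15. Plxna1 rose from 17, 17 and 15 to 33, 38 and 32 (1.03 ± 0.13, adjusted p = 0.00055; 0.88, adjusted p = 0.014), against 22, 19 and 17 in siNC. The untreated and control siRNA libraries of the same line did not overlap at Robo1, Dcc and Plxna1. The same held at every other member called in untreated VDR on its own count except Unc5c and Plxnb2. These members were picked because untreated VDR differed from tumor, which favours separation from siNC as well. No such comparison was made over all genes, so this is no result about guidance genes.

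Robo2, named after its values were seen, turned direction. It had 25, 20 and 24 summits in tumor and 19, 8 and 14 in untreated VDR (-0.78 ± 0.27, adjusted p = 0.0453, limma), but 1.21 ± 0.20 relative to neighbours (adjusted p = 0.0049), which held a mean of 84.3 summits in tumor and 21.3 in untreated VDR. Robo1 is one of these neighbours, and its own mean went from 40.7 to 6.0; with members left out Robo2 gave 0.73 (adjusted p = 0.0321) and Robo1 -1.13 (adjusted p = 0.00607). Chromosome 16, with Robo1 and Robo2, carried 1.58% to 1.88% of the summits in untreated VDR and 3.27% to 3.48% in tumor.

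A further 8 named members were called in untreated VDR on their own count and not relative to neighbours. Sema3a went from 7, 3 and 7 to 1, 0 and 0 (-2.33 ± 0.42, adjusted p = 0.0029, limma; -0.76, adjusted p = 0.105, or -1.39, adjusted p = 0.0116, with members left out of its neighbours), and Epha7 from 10, 9 and 7 to 1, 1 and 1 (-2.26 ± 0.23, adjusted p = 0.000228; 0.47, adjusted p = 0.21). Ntng1 went to 4, 2 and 2 (-2.22 ± 0.24, adjusted p = 0.000285; -0.72, adjusted p = 0.168). Efnb2, Sema6a and Epha5 gave -1.25, -1.03 and -0.99, and -0.41, -0.10 and 0.49 relative to neighbours. Plxnb2 and Plxna2 rose by 0.98 and 0.87 on their own, and gave -0.60 (adjusted p = 0.0515) and -0.24 (adjusted p = 0.446) relative to neighbours. Chromosome 1 carried 15.1% to 16.8% of the kept summits in these libraries and chromosome 3, with Unc5c and Ntng1, 1.85% to 2.41%, against 4.55% to 4.83% in tumor. Both comparisons with tumor use the same tumor libraries.

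**Figure D5:**
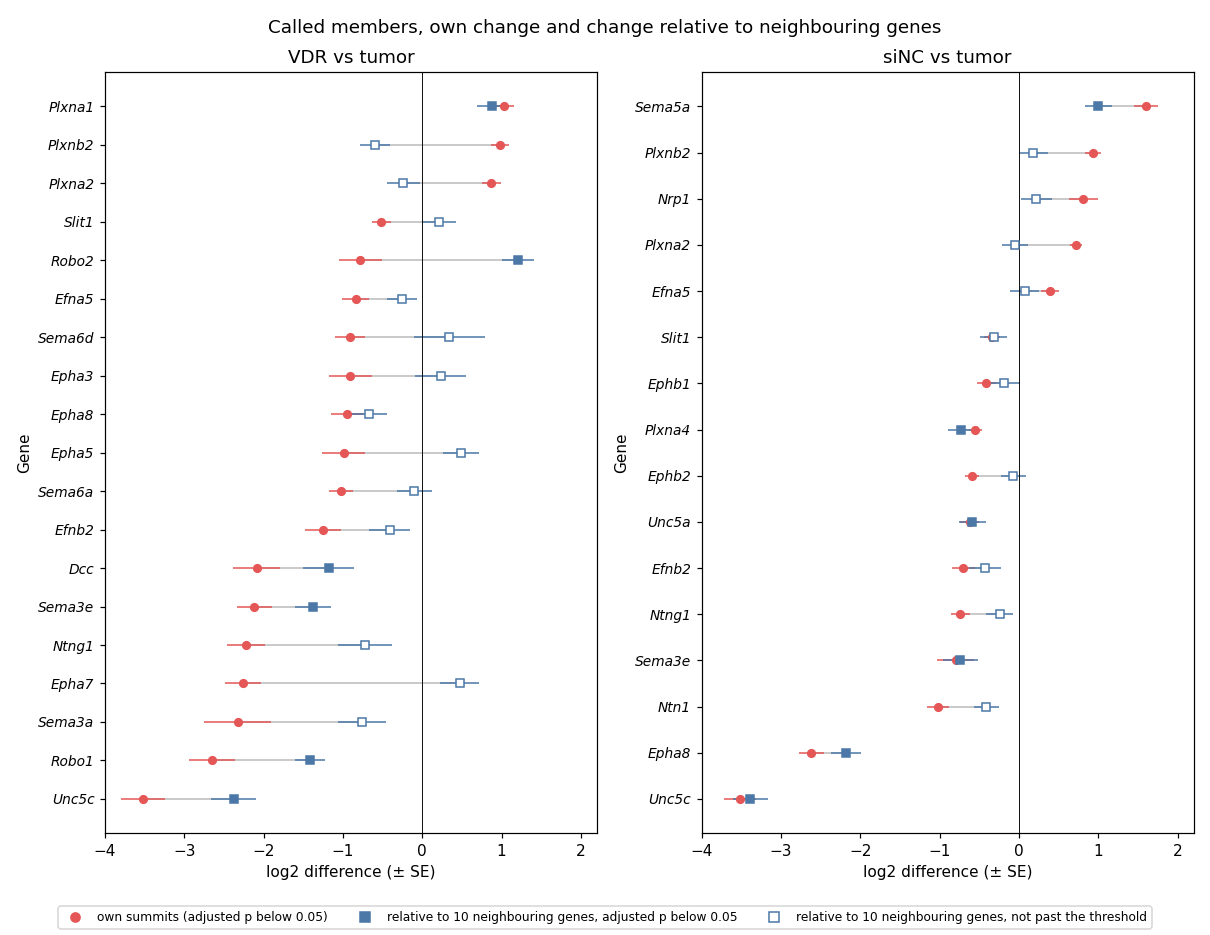
log2 difference with its standard error for members called in untreated VDR (left) and siNC (right) against tumor: own count (red circles) and count relative to 10 neighbouring genes (blue squares, filled where called). Plxna2 and Plxnb2 move from near 1 towards or below 0, Robo2 turns from -0.78 to 1.21, and Unc5c stays below -2 in both panels.

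With siRNA against Nfia no guidance gene was called. Of 35 tested members 0 were called with siNfia against siNC (background 0.0% of 13542 genes, limma), 3 had an unadjusted p under 0.05, as did 1509 of all genes, and for 0 of 35 the groups lay apart (8.62%). Sema4d, a semaphorin for plexin B1, had the lowest p, with 14, 10 and 8 summits in siNC and 5, 6 and 8 in siNfia (-0.66 ± 0.20, adjusted p = 0.277). Ephb2 had 30, 26 and 29 against 27, 19 and 21 (-0.34 ± 0.13, adjusted p = 0.36). Unc5a gave -0.41 ± 0.19 (adjusted p = 0.44) and Sema3e 0.40 ± 0.20 (adjusted p = 0.479), with 11, 11 and 11 summits in siNfia. Among 761 member sites 10 were gained (background 0.978%) and 5 lost (0.845%), 3 of the gained ones in Sema3e, such as chr5:14073120-14073619 in its gene body, 48094 bp from the start.

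With siRNA against Nfib, Robo2 rose. Against siNC 1 of 35 members was called, Robo2, up (background 0.938%). It had 25, 24 and 29 summits in siNC, 30, 31 and 29 in siNfia and 36, 37 and 41 in siNfib, all siNfib libraries above the others (0.53 ± 0.10, adjusted p = 0.0295, limma). Relative to neighbours it gave 0.36 (adjusted p = 0.322), and the call was lost with 7 of the 9 libraries left out in turn, all but siNC replicate 3 and siNfia replicate 2 (adjusted p of up to 0.149). The groups did not overlap for 9 of 35 members (12.8%). Scores at rank 100000 were also higher in siNfib (8.25 to 17.4) than in siNfia (5.03 to 7.23); their part in the differences was not tested.

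Epha8 had 3, 2 and 2 summits in siNC, 1, 4 and 2 in siNfia and 10, 5 and 8 in siNfib, above both. Against siNC the difference was 1.35 ± 0.31 (adjusted p = 0.0604, limma), short of the threshold; relative to neighbours it was 1.56 (adjusted p = 0.0429), the 1 member called there (background 0.901%). Against siNfia it passed, at 1.44 ± 0.31 (adjusted p = 0.0322), but the gene reached a mean of 3 only through siNfib, and with no filter it was not called (adjusted p = 0.108). Sema5a had 31, 30 and 35 in siNC, 36, 34 and 31 in siNfia and 22, 26 and 23 in siNfib, the siNfib libraries below all others. It fell against siNfia (-0.49 ± 0.11, adjusted p = 0.0347) and missed the threshold against siNC (-0.42 ± 0.11, adjusted p = 0.0848). Plxna1 gave -0.44 ± 0.15 against siNC (adjusted p = 0.18).

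Epha8 and Sema5a were thus the 2 of 35 members called between siNfib and siNfia (background 1.65%), and the groups did not overlap for 10 of 35 (15.7%). Neither call was stable: each was kept with 2 of the 9 libraries left out in turn, with adjusted p of up to 0.204 and 0.171, and relative to neighbours the values were 1.35 (adjusted p = 0.0676; 1.44 and 0.0328 with members left out) and -0.72 (adjusted p = 0.0629). Plxna4 had 27, 28 and 25 in siNfia and 16, 20 and 22 in siNfib (-0.45 ± 0.12, adjusted p = 0.085), and Sema4d 5, 6 and 8 against 10, 12 and 10 (0.69 ± 0.20, adjusted p = 0.105).

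Of 773 member sites, 39 (5.05%) were gained (background 3.26%) and 27 (3.49%) lost (2.26%) with siNfib against siNC. Of the gained ones 12 were missing from all 3 whole siNC lists, and of the lost ones 0 from all 3 whole siNfib lists. The whole lists held 206240 to 279584 summits in siNfib and 192817 to 228691 in siNC, and the part of this in the site counts was not tested. The best-ranked gained site lay in Ntn1 at chr11:68378362-68378861, in the gene body; it was occupied in 3 of 3 siNfib libraries and in none of the other 18. A site in Ntng1 at chr3:109917856-109918355 was occupied in 3 siNfib libraries, 1 tumor library and no other. In the opposite direction, a site in Nrp2, the second neuropilin, at chr1:62805952-62806451, was occupied in all libraries except the 3 of siNfib, where it still stood in the whole lists at ranks 111096 to 188589. A site in Epha4 at chr1:77410049-77410548 was occupied in 3 siNC and 3 siNfia libraries and 0 of siNfib. The whole siNfib lists held it at ranks 114723 and 138892, and 1 of them did not hold it.

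Several members were not called on their own counts in any comparison. Sema3f, Plxnb1 and Nrp2, with 9 to 18, 8 to 15 and 17 to 36 summits over the 21 libraries, were among these, as were Epha4, Slit3 and Unc5b, with 8 to 18, 44 to 56 and 13 to 22. Sema6d, Slit1, Epha3 and Efna5 fell in untreated VDR by 0.91, 0.52, 0.91 and 0.84 on the log2 scale, and Slit1 in siNC by 0.34. Relative to neighbours none of these 5 differences was called. Efna5 went in opposite directions against the same tumor libraries, as it rose in siNC by 0.39. Sema3c stayed under the filter in every fit, with 2 to 4 summits in GNP and hyperplasia and 0 to 2 elsewhere.

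A list of 63 further genes of the pathway (other semaphorins, ephrins, Eph receptors, adaptors and adhesion molecules) gives the setting. Of 62 tested, 2 fell in hyperplasia against GNP (Kalrn, -0.43 ± 0.10, and Sema7a, a membrane-anchored semaphorin, -0.38 ± 0.08), 1 rose from hyperplasia to tumor (Sema7a, 0.61 ± 0.08, adjusted p = 0.0288, limma) and 0 were called between tumor and GNP, where 13 had an unadjusted p under 0.05. Sema7a was thus called in both steps, in opposite directions, around a hyperplasia mean of 16.7 ± 0.577 summits (SD, n = 3), below both GNP and tumor. Both steps use the same hyperplasia libraries. Relative to neighbours the hyperplasia falls were not called (Sema7a -0.35, adjusted p = 0.152, and Kalrn -0.47, adjusted p = 0.0752, limma). The Sema7a rise in tumor was (0.67, adjusted p = 0.039). In siNC against tumor 11 rose and 11 fell; Dscam, a netrin co-receptor, gave -1.69 ± 0.15 and -1.28 relative to neighbours (adjusted p = 0.000167). In untreated VDR 7 rose and 27 fell, and the secreted netrin gene Ntn4 went from 21.3 ± 3.06 to 3.33 ± 0.577 (-1.93 relative to neighbours, adjusted p = 0.00128). With siRNA, of 60 tested, 0 were called in either comparison with siNC, where 11 (siNfia) and 6 (siNfib) had an unadjusted p under 0.05. With siNfib against siNfia 1, Rgma, fell (-0.46 ± 0.10, adjusted p = 0.0366, limma), but relative to neighbours it was not called (-0.47, adjusted p = 0.148).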

How the data were processed

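Omni-ATAC libraries of 7 groups of 3 were represented by 21 summit lists deposited by the authors, 1 per library. The submitters' processing notes name Bowtie2, Picard, MACS2 and mm10, without versions. The deposited score is a −log10 p or q value (which of them was used is not stated), and each list belongs to 1 library. Read depth is not given, so no counting interval was computed; the number of summits and the score at rank 100000 stand for it.

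From each list the 100000 highest scores were kept (ties by file order). Summits were counted in 21887 protein-coding gene windows (RefSeq gene body and 20 kb on either side, GRCm38.p6), and log2(count + 1) was tested with limma 3.58.1 in R 4.3.3 (trended empirical Bayes, mean of at least 3 summits, Benjamini-Hochberg over all genes tested, adjusted p below 0.05). The fits held the 9 primary libraries, the 9 siRNA libraries, or the 6 libraries of a comparison with tumor. Sites of 500 bp were seeded by the best-ranked summits, and each summit was counted to its nearest site only. With 3 against 3 libraries an exact test of 1 site cannot go below 0.1, so sites and starts were only counted. The fit was tested on simulated data. Figures and counts used Python 3.11.15.

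The members and lists were chosen with earlier results of these data known. Text names, in each comparison, members called, up to 10 in each direction, and fills up to 4 with the lowest p; up to 3 other pathway genes and up to 3 sites in each direction could be named. No 2 libraries shared more than 2.56% of kept summits at the same base. Deviations of same-numbered libraries were correlated at no more than 0.066, and replicate numbers were not used as pairs in the main fits. This does not settle whether same-numbered libraries were prepared together.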

Additional observations from a re-analysis of the deposited data

How the results depend on the processing

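Counts of called members, with 1 choice changed at a time, moved by more than 1.5 times as follows. Hyperplasia against GNP (2 called) gave 5 with 50000 summits per library, 1 with whole lists, 5 with a score of at least 10, 4 in gene bodies without flanks, 4 with summits away from gene ends, 1 centred on the library median, 5 relative to neighbours and 1 with untreated VDR in the fit. Tumor against hyperplasia (0) gave 2 with 50000 summits, 1 with whole lists, in gene bodies, by occupied sites, away from gene ends, without the filter and relative to neighbours, and 2 centred. Tumor against GNP (7) gave 4 with 50000 summits, 4 with a score of at least 10, 4 in gene bodies, 11 centred and 2 with the wider fit. Untreated VDR against tumor (19) gave 10 with 50000 summits, 37 with a score of at least 10 and 7 relative to neighbours; siNC against tumor (16) gave 9 relative to neighbours. siNfib against siNC (1) gave 0 with whole lists, a score of at least 10, occupied sites and the wider fit and 3 away from gene ends. siNfib against siNfia (2) gave 1 with 50000 summits, occupied sites and the wider fit, and 0 with a score of at least 10, in gene bodies, without the filter and relative to neighbours. With neighbours that overlap no member, chosen after seeing the data, the counts were 4 for hyperplasia against GNP, 1 for tumor against hyperplasia, 8 for untreated VDR, 9 for siNC and 1 for siNfib against siNfia. A score minimum and whole lists leave libraries with unequal numbers of summits, and the median change of all genes then reached -2.26 in untreated VDR against tumor. Over all genes these 2 settings called 11438 (untreated VDR, score of at least 10), 130 (hyperplasia against GNP, whole lists) and 66 (tumor against GNP, score of at least 10). Leaving out 1 library gave 1 to 2 for hyperplasia against GNP, 0 for tumor against hyperplasia, 2 to 7 for tumor against GNP, 15 to 19 for untreated VDR, 11 to 13 for siNC, 0 for siNfia against siNC, 0 to 2 for siNfib against siNC and 0 to 2 for siNfib against siNfia. Other causes of these shifts were not tested.

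Member sites that differ gave 49 with 50000 summits in hyperplasia against GNP, 114 with whole lists in tumor against GNP, 79 with 50000 summits, 311 with whole lists and 325 with a score of at least 10 in untreated VDR against tumor, 220 with whole lists in siNC against tumor, 32 with whole lists and 6 with a score of at least 10 in siNfia against siNC, and 47 with 50000 summits and 127 with whole lists in siNfib against siNfia.

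Of 1092 results for named members under an alternative, 853 kept direction and side of the threshold, 187 lost the call, 24 gained one and 28 turned. With whole lists Plxna2 gave -0.03 (hyperplasia against GNP) and -0.10 (tumor against GNP), Sema3e -0.29 (siNfia against siNC), Plxna1 0.01 (siNfib against siNC) and Plxna4 0.10 (siNfib against siNfia). With a score of at least 10 Plxna2 gave -0.13 and 0.00 in the same stage comparisons; Plxna1, Plxnb2 and Plxna2 gave -2.62, -1.06 and -2.03 in untreated VDR, Nrp1 and Efna5 -0.15 and -0.31 in siNC against tumor, Sema5a and Plxna1 0.14 and 0.42 in siNfib against siNC, and Sema5a and Plxna4 0.21 and 0.46 in siNfib against siNfia. With 50000 summits Sema5a gave 0.14 in tumor against GNP and Ntng1 0.09 in siNC against tumor. Relative to neighbours, with or without members among them, Plxnb2, Plxna2, Epha7 and Epha5 gave -0.60, -0.24, 0.47 and 0.49 in untreated VDR and Plxna2 -0.05 in siNC against tumor.

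With the replicate block the member counts were 1 for hyperplasia against GNP, 0 for tumor against hyperplasia, 5 for tumor against GNP, 19 for untreated VDR, 15 for siNC, 0 and 1 for siNfia and siNfib against siNC and 0 for siNfib against siNfia. Same-numbered libraries of the compared groups had deviations correlated at -0.038 to 0.066, and differently numbered ones at -0.0704 to 0.0443. Such weak correlations cannot settle whether same-numbered libraries were prepared together, and these values say nothing of weaker effects.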
